A study of Mus musculus with 2 samples.

Results

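The miR-181 family of the mouse comprises 6 genes, Mir181a-1, Mir181b-1, Mir181a-2, Mir181b-2, Mir181c and Mir181d, and all 6 were found among the 1973 miRNA genes counted here. They were chosen by name and no measured value was a criterion, although earlier results of these data were known. They were matched through their Ensembl identifiers to the GENCODE M21 annotation of mm10. Short RNA had been sequenced from whole liver of B6NCrl mouse embryos at day 12.5, healthy, with males and females pooled. There was a single group with 2 biological replicates. Replicate 1 pooled 120 embryos and replicate 2 pooled 88. The labels describe no treatment, mutation or second tissue, so the values below are levels, their spread over both libraries and differences between the libraries. Both carry the same donor identifier in the labels, so part of the spread may be technical.

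A miRNA gene is transcribed into a hairpin, and either arm of that hairpin, named 5p or 3p, can be released as a mature miRNA of about the length of a short RNA read. The seed, bases 2 to 8 of the mature form, does most of the pairing with target mRNAs, so miRNAs with one seed are grouped as a family. In mammals miR-181 genes are known from blood cell development, where miR-181a tunes the response of the T cell receptor in thymocytes and was among the miRNAs first linked to the B cell lineage. The family has also been studied in hepatic stem cells and in liver tumour cells with stem cell features. Fetal liver holds hepatoblasts and blood-forming cells together. In such bulk tissue a lower level can mean fewer cells of a type or less of the RNA per cell, and these cannot be told apart.

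The mature forms are shown first, because which of them are identical between genes decides what the counts can tell apart. Mature sequences of all 6 genes were in the RefSeq table (GRCm38.p6), as 12 arms with 10 distinct sequences. They are written 5′ to 3′ with the seed in capitals.
miR-181a-5p (Mir181a-1 and Mir181a-2): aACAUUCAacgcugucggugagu
miR-181b-5p (Mir181b-1 and Mir181b-2): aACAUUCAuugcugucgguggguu
miR-181c-5p (Mir181c): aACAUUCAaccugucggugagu
miR-181d-5p (Mir181d): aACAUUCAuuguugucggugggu
miR-181a-1-3p (Mir181a-1): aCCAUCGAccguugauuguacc
miR-181a-2-3p (Mir181a-2): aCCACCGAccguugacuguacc
miR-181b-1-3p (Mir181b-1): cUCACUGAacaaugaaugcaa
miR-181b-2-3p (Mir181b-2): cUCACUGAucaaugaaugcaaa
miR-181c-3p (Mir181c): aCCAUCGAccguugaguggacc
miR-181d-3p (Mir181d): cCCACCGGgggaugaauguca

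All 5p forms carried one seed, ACAUUCA, and 0 other genes of that table had a mature arm with it. Positions below count from 1 at the 5′ end of the first form named. The miR-181a and miR-181b 5p forms differed by A9U, C10U and A21G over their first 23 bases. The miR-181b and miR-181d 5p forms differed only by C12U over the same length. The miR-181a and miR-181c 5p forms were 1 edit apart, a difference of 1 base in length. The loci are therefore built alike, each with a miR-181a or miR-181c form upstream and a miR-181b or miR-181d form downstream.

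The 3p arms told the copies apart. The 3p arms of Mir181a-1 and Mir181a-2 differed by U5C and U16C, so that their seeds differed, CCAUCGA against CCACCGA. The 3p arm of Mir181c shared the seed CCAUCGA with that of Mir181a-1 and differed from it by U16G and U19G. Those of Mir181b-1 and Mir181b-2 shared the seed UCACUGA and differed by A9U and by 1 base in length. The Mir181d 3p arm had a seed of its own, CCACCGG. As for the 5p seed, 0 other genes of the table carried any of these 3p seeds.

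The genes sit in 3 paired loci. Mir181a-1 (ENSMUSG00000065565.1) lies on the plus strand of chromosome 1 from 137966455 to 137966541, and Mir181b-1 (ENSMUSG00000065458.1) follows 97 bases on, from 137966639 to 137966718. Both lie in an intron of the noncoding gene Gm4258. The lincRNA A430106G13Rik, on the same strand, begins inside the last 11 bases of the Mir181a-1 hairpin and covers all 80 bases of Mir181b-1 with an exon. On the other strand both lie in an intron of the lincRNA Gm26936.

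Mir181a-2 (ENSMUSG00000065423.1) lies on the plus strand of chromosome 2 from 38852735 to 38852810, and Mir181b-2 (ENSMUSG00000065578.1) from 38853830 to 38853918, with 1019 bases between them. They are opposite an intron of Nr6a1, which encodes an orphan nuclear receptor, and Mir181b-2 is also opposite an exon of Gm44144. The antisense transcript Nr6a1os ends 364 bases before Mir181a-2 on the same strand. Mir181c (ENSMUSG00000065483.1 in the counts, a later version in M21) lies on the minus strand of chromosome 8 from 84178873 to 84178961. Mir181d (ENSMUSG00000076338.1) lies 85 bases downstream of it, from 84178716 to 84178787. Both are in an intron of Nanos3, a germ cell gene, on its strand. Although genes on the opposite strand overlap 4 of the hairpins, opposite-strand counts came to 0 over the 6 members in both libraries.

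The libraries held 11057424 and 11013976 reads (replicates 1 and 2), of which 3447858 and 3534816 were sense counts on miRNA genes. Levels are sense counts per 1000000 of these (CPM), not divided by length because mature miRNAs are of nearly one length. Reads aligned to several places stood on a line of their own and were assigned to no gene. They numbered 3180324 and 3427344, or 28.8% and 31.1% of all reads. Reads carried no molecular identifiers, so every interval covers counting error only. The markers fixed for liver and blood were present, with Mir122 of hepatocytes at 60913 and 47128 CPM and Mir223 of myeloid cells at 6929 and 5584 CPM. Mir150, which is high in mature lymphocytes, stood at 20.0 and 17.3 CPM. The 3 erythroid markers summed to 16926 and 37430 CPM but did not move together. Mir451a was 12422 and 32496 CPM, Mir144 3300 and 4042 CPM, and Mir486 1204 and 892 CPM, so Mir451a made up most of the gap and Mir486 was lower in replicate 2. Endothelial Mir126a stood at 68816.3 and 68164.5 CPM. The 4 markers of mesenchyme and smooth muscle summed to 23535 and 25434 CPM, of which Mir143 was 19037 and 20332 CPM. Only Mir199a-1 of these markers was lower in replicate 2, at 6.67 and 3.11 CPM. Of the 3 skeletal muscle markers, Mir206 stood at 129 and 288 CPM and 2 had 0 counts in both libraries. Of 5 neuronal marker genes analysed, 4 had 0 counts in both libraries. The muscle and neuronal genes with 0 counts are numbered as copies of a miRNA. Reads that align to several copies were assigned to no gene, so these zeros cannot show that such RNA was absent.

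Reads of a shared mature form cannot be assigned to one copy. The hairpins of Mir181a-1 and Mir181a-2 share an unbroken run of 28 bases that holds the 23 bases of miR-181a-5p with 1 base before and 4 after it. Those of Mir181b-1 and Mir181b-2 share 26 bases, the 24 of miR-181b-5p with 2 before and 0 after. A 5p read is specific to a copy only where it reaches past such a run. Of all windows of 22 bases, 7 of 66 in Mir181a-1, 7 of 55 in Mir181a-2, 5 of 59 in Mir181b-1 and 5 of 68 in Mir181b-2 also occurred in the partner copy. In Mir181c and Mir181d, 0 of 68 and 0 of 51 windows occurred in any other of the 2202 miRNA hairpins. A read that lies wholly in a shared 5p form aligns equally well to both copies, so such reads can be missing from the counts of 4 members, while Mir181c and Mir181d have no such form. Which arm the counted reads came from was not measured, and the mismatches that the alignment allowed were not given in the sources used here.

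Mir181c and Mir181d, the pair with no shared mature form, carried most of the counts assigned to the family. The family as a whole held 4205 CPM in replicate 1 and 4635 CPM in replicate 2, a mean of 4420 ± 304 CPM (SD, n = 2) or 0.442% of the sense counts. The c/d locus held 3242 and 3583 CPM. The a-1/b-1 locus held 519 and 582 CPM, and the a-2/b-2 locus 445 and 470 CPM. Both libraries gave this order of loci, and the values of the libraries did not overlap between loci.

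As a share of the family, the c/d locus held 77.1% in replicate 1 (exact Clopper-Pearson 95% interval 76.4 to 77.8) and 77.3% in replicate 2 (76.6 to 77.9). The a-1/b-1 locus held 12.3% (11.8 to 12.9) and 12.6% (12.1 to 13.1). The a-2/b-2 locus held 10.6% (10.1 to 11.1) and 10.1% (9.69 to 10.6). The intervals of the 2 libraries overlapped for each locus, but a difference between the libraries in these shares was not tested. The shares are of reads assigned to a gene. The a-1/b-1 locus was short of the c/d locus by 9388 and 10607 counts, which is 0.295% and 0.309% of the reads that aligned to several places. For the 4 genes with shared forms together the shortfall was 7855 and 8945 counts, or 0.247% and 0.261% of those reads. How many of the reads aligned to several places were miR-181a or miR-181b was not measured, so the order of the loci holds for assigned reads only.

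**Figure D1:**
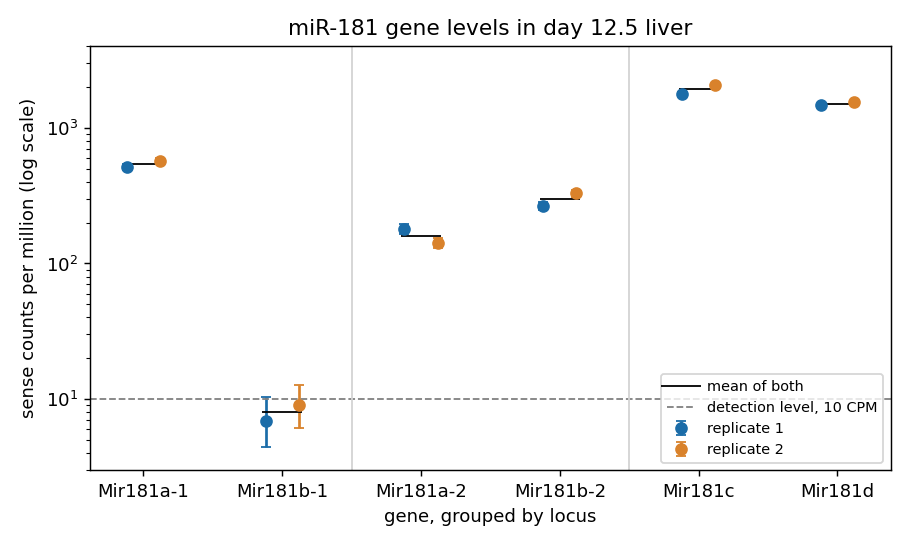
Sense counts per 1000000 of the 6 miR-181 genes on a log axis, grouped by locus. Points are the 2 libraries with exact Poisson 95% intervals, black bars their means, and the dashed line the detection level of 10 CPM, which only Mir181b-1 misses in both libraries.

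Among the single genes, 5 of 6 were detected, meaning at 10 CPM or more in both libraries, beside 15.3% of all genes listed. Mir181c led with 1779 CPM in replicate 1 and 2049 CPM in replicate 2, a mean of 1914 ± 192 CPM (SD, n = 2), rank 81 of the 1973 genes. Mir181d stood at 1463 and 1534 CPM, a mean of 1498 ± 49.8 CPM (SD, n = 2), rank 88. Both lay above 70.8% or more of the detected genes.

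The members with shared 5p forms were lower. Mir181a-1, a gene of the thymocyte and B lineage miRNA, had 512 and 573 CPM, a mean of 543 ± 43.3 CPM (SD, n = 2) and rank 122. Mir181b-2 had 265 and 329 CPM, a mean of 297 ± 45.2 CPM and rank 153. Mir181a-2 had 180 and 141 CPM, a mean of 160 ± 27.1 CPM and rank 187. It is the one member lower in replicate 2. Mir181b-1 had 24 and 32 counts, or 6.96 (95% interval 4.46 to 10.4) and 9.05 (6.19 to 12.8) CPM, a mean of 8.01 ± 1.48 CPM and rank 322. Its intervals include 10 CPM in both libraries, so this depth does not place it below the detection level.

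The order of the 6 genes was the same in both libraries, and for each neighbouring pair in it the exact Poisson intervals did not overlap in either library. As a ratio the closest step was from Mir181c to Mir181d, at 1.22-fold in replicate 1 and 1.34-fold in replicate 2, with a difference of 415 CPM between means beside an SD of 192 CPM for Mir181c. In CPM the smallest was from Mir181b-2 to Mir181a-2, with 137 CPM between means beside an SD of 45.2 CPM. The widest relative step was the last, where Mir181a-2 exceeded Mir181b-1 by 25.8-fold in replicate 1 and 15.6-fold in replicate 2. By mature 5p form, the copies of miR-181a summed to 703 ± 16.2 CPM (SD, n = 2) and those of miR-181b to 305 ± 46.7 CPM. These sums hold only reads assigned to one of the copies.

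The 3 loci split their assigned counts between upstream and downstream gene in 3 different ways. Reads of a shared mature form can be missing from both genes at a-1/b-1 and at a-2/b-2, while c/d has no such form. The splits are therefore not like measures, and their differences need not be differences in expression. At a-1/b-1 nearly all counts fell on the upstream gene. Mir181a-1 held 98.7% (95% interval 98.0 to 99.1) of the pair's counts in replicate 1 and 98.4% (97.8 to 98.9) in replicate 2, a ratio of 73.5 and 63.3. At a-2/b-2 the downstream gene was the higher. Mir181a-2 held 40.4% (37.9 to 42.9) and 30.0% (27.8 to 32.3), so Mir181b-2 exceeded it by 1.48-fold (1.33 to 1.64) in replicate 1 and 2.33-fold (2.10 to 2.59) in replicate 2. At c/d the genes were close. Mir181c held 54.9% (53.9 to 55.8) and 57.2% (56.3 to 58.1), a ratio of 1.22 (1.17 to 1.26) and 1.34 (1.29 to 1.38).

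**Figure D2:**
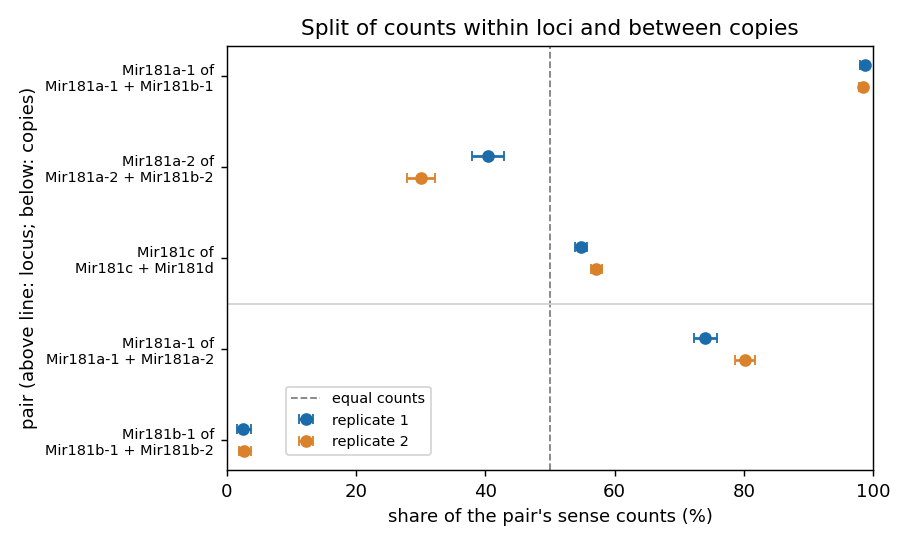
Share of a pair's sense counts held by the first gene named, in percent, for the 3 loci (above the line) and for the copies with an identical 5p form (below it). Points are the 2 libraries with exact Clopper-Pearson 95% intervals. The intervals of the libraries are apart for the a-2/b-2 and c/d loci and for the miR-181a copies.

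The split at a-2/b-2 was the one that differed most between the libraries. The share of Mir181a-2 fell by 10.4 percentage points from replicate 1 to replicate 2 (two-sided Fisher's exact test, p = 1.09e-09, adjusted p = 3.26e-09 over 3 loci). At c/d the share of Mir181c rose by 2.33 percentage points (exact p = 0.000292, adjusted p = 0.000439). At a-1/b-1 the difference fell within counting error, with a change in the share of Mir181a-1 of -0.21 percentage points (exact p = 0.593, adjusted p = 0.593). These tests compare 2 libraries, not conditions. They allow for counting error only, and the spread between livers enters no part of them.

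A second comparison sets the copies of one mature form against each other. The copies took opposite sides at the 2 a/b loci. Of the counts assigned to either miR-181a copy, Mir181a-1 held 74.0% (95% interval 72.2 to 75.8) in replicate 1 and 80.2% (78.6 to 81.8) in replicate 2, or 2.85 and 4.06 times those of Mir181a-2. Of those assigned to either miR-181b copy, Mir181b-1 held 2.56% (1.65 to 3.78) and 2.68% (1.84 to 3.76), so Mir181b-2 exceeded it by 38.1 and 36.3 times. The chromosome 1 copy was thus the higher for miR-181a and the chromosome 2 copy for miR-181b. Between libraries, the split of the miR-181a copies differed (two-sided Fisher's exact test, p = 2.65e-07, adjusted p = 5.29e-07 over 2 pairs). The log2 ratio of these copies changed by 0.51, beside a median absolute change of 0.41 over 22 pairs of copies, of which 16 changed less. Each pair that changed more had a copy with at most 42 counts in either library, while Mir181a-2 had 619 and 499. The pairs are thus not matched for counting error, and their changes do not show whether that of the miR-181a copies was usual. The split of the miR-181b copies did not differ beyond counting error (exact p = 0.892, adjusted p = 0.892). Since each copy is counted through different bases beyond the shared form, these ratios need not be ratios of transcription.

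Against other pairs of genes, 2 loci had ratios below the median and 1 above it. Of neighbouring miRNA genes on a strand within 1 kb of each other, both detected, there were 62 pairs, with a median ratio of higher to lower gene of 6.52. The 1.28-fold ratio of mean levels at c/d, one of those pairs, was larger than that of 3 of the 62. The 67.8-fold ratio at a-1/b-1, where Mir181b-1 was under the detection level, exceeded that of 54. The genes at a-2/b-2 lie just over 1 kb apart, and a limit of 10 kb took them in, with 92 pairs and a median ratio of 6.07. There the ratio of 1.85 at a-2/b-2 was larger than that of 14 pairs. All these ratios are of assigned reads, and the pairs were not matched for mature forms shared with other copies. A place in this order therefore need not be one of expression.

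For the change of a pair's log2 ratio between the libraries, the same 92 pairs had a median of 0.19 with an upper quartile of 0.33. The change at a-2/b-2 was -0.66 for Mir181a-2 over Mir181b-2, larger in size than that of 85 of the 92. At c/d it was 0.14, above that of 34 pairs, and at a-1/b-1 -0.21, above that of 51.

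**Figure D3:**
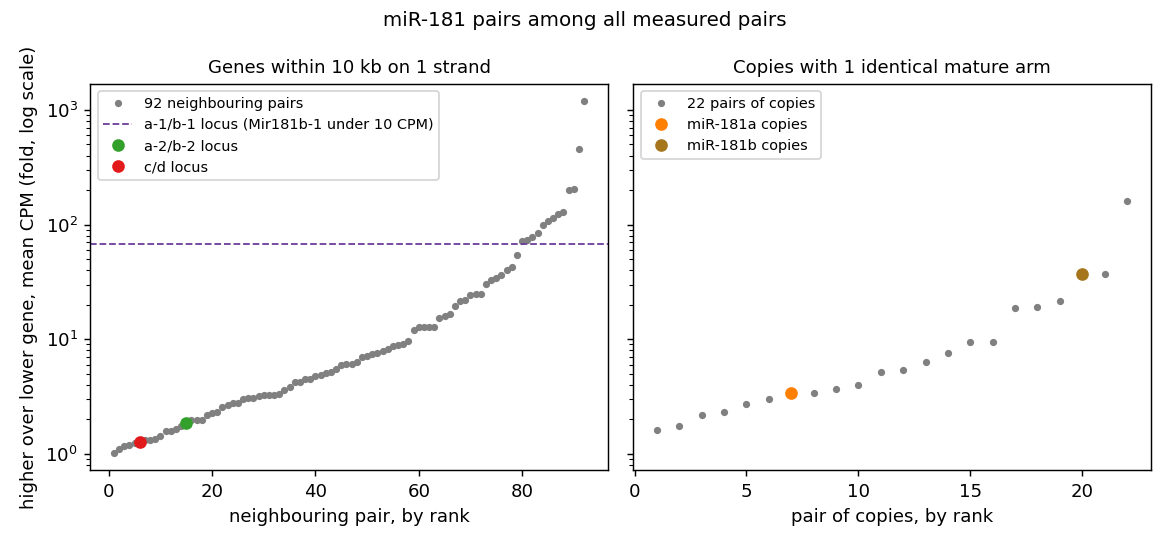
Ratio of the higher to the lower gene by mean CPM on a log axis, with pairs in order of the ratio. Left are 92 pairs of neighbouring genes within 10 kb on 1 strand, with the c/d and a-2/b-2 loci low in the range and the a-1/b-1 ratio of 67.8 as a dashed line. Right are 22 pairs of copies with an identical mature arm, where the miR-181b copies at 37.1 stand near the top.

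Other genes with an identical mature arm give the setting for the copies. Of 916 listed genes with a mature form in the RefSeq table, 81 had an arm that was identical in another listed gene. Of these, 31 (38.3%) were detected, with a median of 95.3 CPM. Mir181a-1, Mir181b-2 and Mir181a-2 were among them and lay above that median. Of the 835 genes without an identical arm 245 (29.3%) were detected, with a median of 412 CPM, and Mir181c and Mir181d lay above it. In 22 pairs of copies with at least 10 counts on each gene, the higher copy exceeded the lower by a median of 5.26 times, from 1.60 for Mir30c-1 over Mir30c-2 to 161 for Mir194-2 over Mir194-1. The miR-181a copies, at 3.38, exceeded 6 of the 22 pairs, and the miR-181b copies, at 37.1, exceeded 19.

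Between the 2 libraries 4 of the 6 members were called higher in replicate 2 and 1 lower, by at most 1.29-fold. Calls are from a two-sided exact binomial test with TMM-scaled library sizes. P-values were adjusted by Benjamini-Hochberg over 464 genes, and the threshold was 0.05. That test called 40.3% of all genes tested, 22% as higher and 18.3% as lower. Over all genes, TMM gave 102 higher and 85 lower, total counts turned this balance over to 77 higher and 101 lower, and DESeq2 size factors gave 87 and 88. The members' median log2 ratio of replicate 2 over replicate 1 was 0.24, beside 0.02 over all genes tested, and their median absolute log2 ratio was 0.28 beside 0.26. The genes tested were not matched to the members for counts, on which both calls and absolute ratios depend.

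Mir181b-2 had the largest ratio among the members called, with a log2 ratio of 0.37 (95% interval 0.24 to 0.49, exact binomial adjusted p = 4.44e-08). Mir181c followed with 0.26 (0.21 to 0.31, exact binomial adjusted p = 2.90e-24). Mir181a-1 had 0.22 (0.12 to 0.31, exact binomial adjusted p = 1.46e-05) and Mir181d 0.12 (0.07 to 0.18, exact binomial adjusted p = 5.34e-05). Mir181a-2, the partner of Mir181b-2, went the other way with -0.29 (-0.47 to -0.12, exact binomial adjusted p = 0.00248). Mir181b-1 was not called, at 0.43 (-0.38 to 1.26, exact binomial adjusted p = 0.439). The signs of all 6 log2 ratios were the same when total counts or DESeq2 size factors were used for scaling.

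None of the members' differences passed once a spread beyond counting was allowed for. In edgeR's negative binomial exact test with an assumed coefficient of variation of 0.1, which called 2.59% of all genes, 0 of the 6 members passed and their adjusted p ran from 0.563 for Mir181b-2 to 0.925 for Mir181d. At an unadjusted p under 0.05 the count was also 0. The coefficient estimated from the 2 libraries was 0.162, and with it 0 members passed. That estimate takes in the very difference between the libraries that is tested, so this outcome is no separate evidence. The absolute log2 ratio of Mir181b-2 was larger than that of 61.9% of the genes tested, that of Mir181a-2 than that of 55.0%, and that of Mir181d than that of 24.8%. Of the erythroid markers, Mir451a and Mir144 were higher in replicate 2, as were the 4 members called higher, and Mir486 was lower, as was Mir181a-2. The part of erythroid cells in these differences was not tested.

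**Figure D4:**
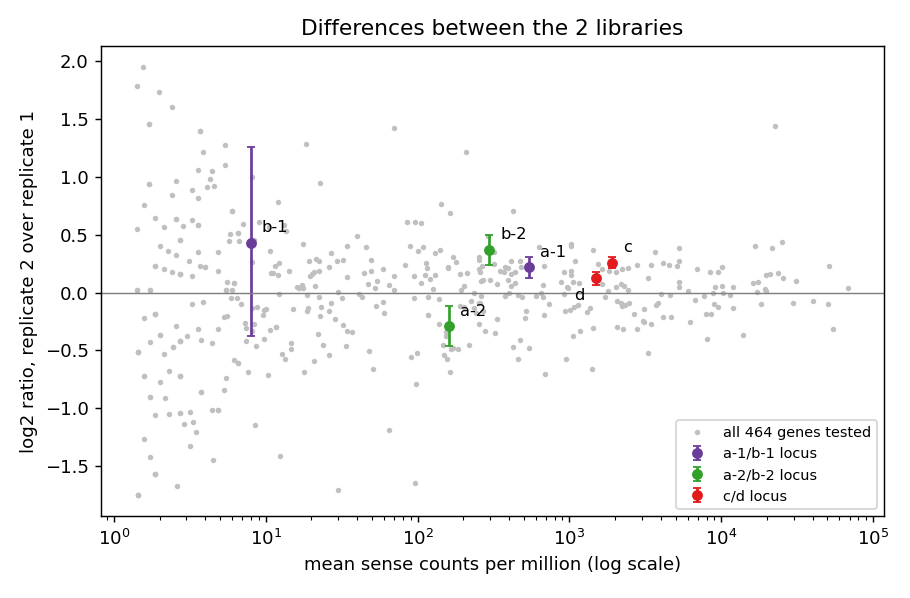
Log2 ratio of replicate 2 over replicate 1 against mean CPM (log axis) for 464 genes (grey) and the 6 miR-181 genes, coloured by locus, with exact 95% intervals for counting error. Mir181a-2 lies below 0 and the other members above it, all inside the grey cloud.

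Beside miRNAs studied in lymphoid and myeloid development, the family was of middle level. Of 18 such genes 17 were analysed and 15 detected, and the median over the 17 was 335 CPM. The highest were Mir17 at 50882 ± 4321 CPM (SD, n = 2) and Mir20a at 21484 ± 3445 CPM, both of the miR-17-92 cluster that promotes growth of lymphoid progenitors, with Mir21a at 25499 ± 893 CPM. Of the 17, 7 lay above Mir181c, the highest miR-181 gene, and 2 below Mir181b-1, the lowest. Of these 2, Mir142b had 0 sense counts but 150867 and 144755 reads on its opposite strand, where Mir142 lies. Mir142 is not among the 17, so this rank and the median leave its level out. Mir150 at 18.6 ± 1.95 CPM and Mir155, a miRNA of activated lymphocytes, at 234 ± 6.76 CPM lay below Mir181a-1. In the exact binomial test 5 of 15 were called higher in replicate 2, 4 lower and 6 were not called, with a median log2 ratio of 0.07. In edgeR's test with a coefficient of 0.1, 0 of the 15 passed.

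Beside miRNAs studied in hepatocytes, hepatoblasts and hepatic stem cells, only Mir181c and Mir181d lay above the median of the list in assigned reads. Of 12 such genes 11 were analysed and 10 detected, and the median over the 11 was 1140 CPM. Mir122, the leading hepatocyte miRNA, stood at 54020 ± 9747 CPM (SD, n = 2), Mir21a as above, and Mir30a at 11903 ± 36.9 CPM. Of the 11, 4 lay above Mir181c, and 1 below Mir181b-1. In the exact binomial test 3 of 11 were called higher in replicate 2, 4 lower and 4 were not called, with a median log2 ratio of -0.02. The epithelial Mir200c, at 861 and 510 CPM, was the 1 gene of this list that passed in edgeR's test with a coefficient of 0.1 (adjusted p = 0.0344, edgeR).

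Genes nearest in level to each detected member were sought by Euclidean distance over log2(CPM + 1) of the 2 libraries, among 300 other detected genes. With only 2 libraries this is a likeness of level, not of a pattern. Mir203, a miRNA of epidermal differentiation, was nearest to Mir181a-1 (distance 0.03) at 504 and 566 CPM. Mir669c was nearest to Mir181a-2 (0.09), Mir199b, of the mesenchymal miR-199 family, to Mir181b-2 (0.10), Mir10b, of the Hox clusters, to Mir181c (0.12), and Mir210, a miRNA induced by hypoxia, to Mir181d (0.10).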

How the data were processed

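Both libraries of short RNA from pooled embryonic liver were analysed. The authors deposited raw counts of reads per miRNA gene for both strands, the sense and the opposite strand, with lines for reads of no gene (unmapped 29.4% and 25.8%, aligned to several places 28.8% and 31.1%, no feature 10.6% and 11.0%), which were left out of library sizes. Per the labels and the deposited file lists, the assembly was mm10 and the annotation GENCODE M4. Aligner and counter were not given in the sources used here. These tables hold no arm of origin.

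Names and coordinates came from GENCODE M21 on the same assembly (5 members in the same version, 1 in another). Mature sequences came from RefSeq (GRCm38.p6). Sense counts became CPM. Log2 ratios had 0.5 counts added. Genes with at least 10 counts over both libraries were tested. TMM and the negative binomial test came from edgeR 4.0.16, the alternative scaling from DESeq2 1.42.0, and exact tests from scipy 1.17.1. With 1 library on each side edgeR's quasi-likelihood test could not be fitted. Alternatives were both strands, all reads as denominator, other thresholds, scalings, filters, tests and limits, and each replicate alone.

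The members and lists were chosen with earlier results of these data known. The named genes were the 6 members, the 3 highest of each list, marker genes and the nearest gene in level. Mir200c, Mir30c-1, Mir30c-2, Mir194-1 and Mir194-2 were named after seeing their values. Of the list names, 2 matched through RefSeq synonyms. Mir142 and Mir24-1 are not analysed here. Where a library shows 0 counts, up to 3 counts cannot be told from none, which is 0.870 and 0.849 CPM.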

Additional observations from a re-analysis of the deposited data

Results flagged for a closer look

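Mir142b, of the lymphoid and blood list, had 0 sense counts in both libraries, while 150867 (replicate 1) and 144755 (replicate 2) reads were counted on its opposite strand, a column that the comparisons above do not use. The blood miRNA Mir142 is annotated there in M21 and is not analysed here by sense counts.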

How the results depend on the processing

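No paired analysis was possible because the labels give a single group. The family's summed level of 4420 CPM became 3998 with counts of both strands and 1399 with all reads as denominator, since the denominators are larger. Without replicate 1 or 2 it was 4635 and 4205. In edgeR's exact tests of replicate 2 against replicate 1, the 187 genes called by the exact binomial test became 12 with a coefficient of variation of 0.1 and 5 with the estimated one, and the members called became 0 higher and 0 lower in both, because these tests add a spread beyond counting. The other 40 values computed for these results under alternatives, among them the shares within loci and between copies, showed no such shift. Shares could not move with both strands or another denominator, as the members had 0 opposite-strand counts and the denominator cancels. They could move between the replicates, where the share of Mir181a-2 in its pair was 30.0% without replicate 1 and 40.4% without replicate 2, beside 35.2% as the mean. Of 88 further values, for single genes, loci and the numbers of all genes called, 12 moved, 10 lost their call in edgeR's tests, and 66 did neither. Those that moved were gene levels under the both-strand and denominator settings, and the numbers of all genes called in edgeR's tests. Members detected were 6 at 1 CPM and 5 at 100 CPM. The depth limits Mir181b-1, with 24 and 32 counts.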
